A study of Drosophila melanogaster with 30 samples.

Results

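Head and body libraries of male flies were compared within groups, to find the genes whose level departs from the group mean in the same direction in a head and in the body that carries the same condition and replicate number. Members are the genes measured in both tissues: 8657 of the 17559 genes in the count table passed a filter on low counts in heads (9088 genes) and in bodies (12009 genes). All flies are adult males of the Cantonized w1118 strain, kept at 25 °C under a cycle of 12 h light and 12 h dark. The young group consists of normal sleepers 5 d old, the aged NSF group of normal sleepers 25 d old, and the aged SF group of flies 25 d old whose sleep was fragmented. Each group holds 5 head and 5 body libraries, so the 30 libraries form 15 pairs of equal condition and number. Each library was made from mRNA of a single head or body, and the labels give the same batch date for all of them, which leaves no batches to compare. The labels do not say that equal numbers mark the same fly.

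A fly has an open circulation, in which hemolymph bathes the organs of head, thorax and abdomen. Fat body, the tissue that stores lipid and sugar and secretes most blood proteins, lies in the abdomen and around the brain. On infection or injury it makes antimicrobial peptides, driven by the NF-kB factor Relish of the Imd pathway and by Dif and Dorsal of the Toll pathway. Insulin receptor signalling, lipid droplet proteins and storage proteins are other fat body systems that follow nutrition, and the peroxiredoxins remove peroxides in most cells.

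The heads had total counts between 1685034 and 3597530 and the bodies between 2458538 and 8060238. Marker genes fitted the tissue labels, with summed photoreceptor genes at 30210 CPM (read counts scaled to a common library total) or more in every head. A pair of body libraries stood apart. Body 1 of the aged NSF group had a summed testis marker level of 166 CPM, against 1026 CPM or more in the other bodies. Body 2 of that group had a summed photoreceptor level of 698 CPM, against 77.8 CPM or less in the others, and a summed yolk protein and egg gene level of 730.2 CPM, against 72.1 CPM or less. Results without both pairs are given where they differ.

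Heads and bodies of equal number departed from their group means together. Deviations are log2 CPM minus the mean of the 5 libraries of the group. Over the 8657 genes, the mean correlation of a head with the body of its own condition and number was 0.161, and the 15 pairs ranged from 0.0483 to 0.281. The 60 combinations of unequal number within a condition averaged -0.0399 and ranged from -0.225 to 0.150. In an exact two-sided permutation test over all 1728000 ways to assign bodies to heads within conditions, p was 1.16e-06, and the labelled numbering ranked 2 among them. The best assignment gave 0.163. In the young group the mean over 5 pairs was 0.175 (exact permutation p = 0.00833), in the aged NSF group 0.163 (exact permutation p = 0.00833) and in the aged SF group 0.146 (exact permutation p = 0.0167), where 0.00833 is the smallest p that 120 assignments allow. For 13 of 15 heads the body with the highest correlation was the one with its own number, and for 12 of 15 bodies it was the head with its own number. Correlations are across genes, which are not independent replicates, so the tests exchange libraries and not genes.

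**Figure D1:**
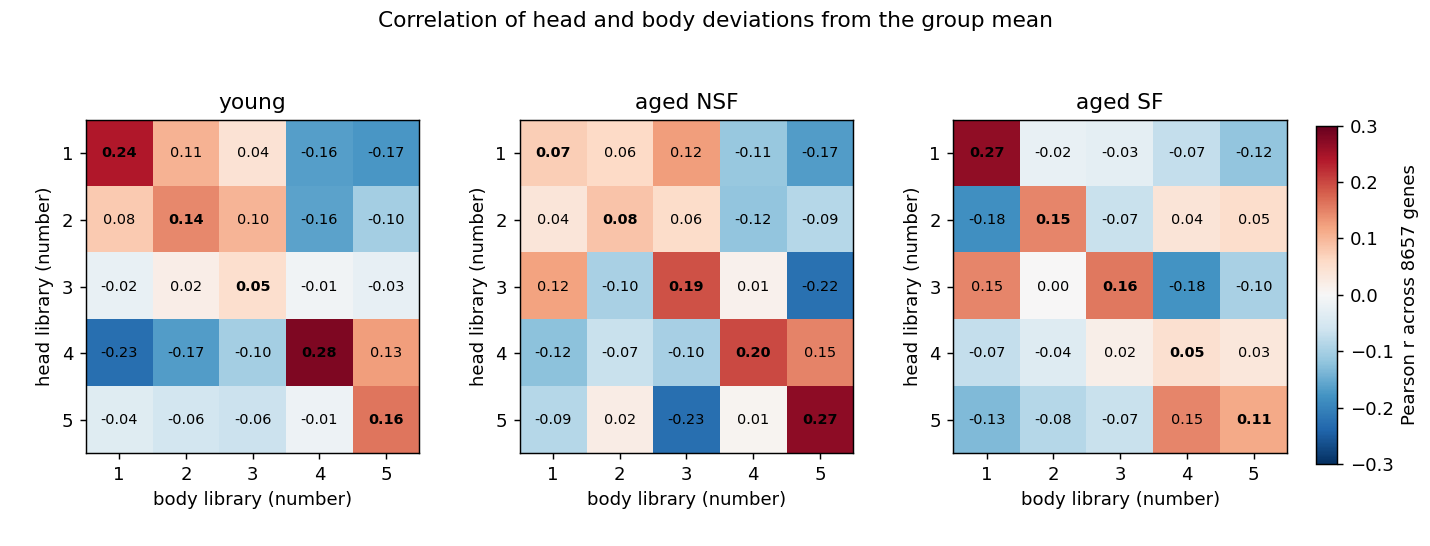
Correlation (Pearson r across 8657 genes) between the deviation profile of each head library (rows, by number) and each body library (columns, by number), for the young, aged NSF and aged SF groups. The diagonal, in bold, holds the 15 pairs of equal number, which lie between 0.0483 and 0.281. The other cells average -0.0399.

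Gene by gene, the mean correlation over the 15 pairs was 0.153 (exact permutation p = 1.1e-05), the median was 0.168, and 5933 genes (68.5%) had a positive r. This mean was also split by condition, with each gene still scaled by its spread over all 15 pairs. The parts were 0.207 for the young (exact permutation p = 0.00833) and 0.136 for the aged NSF group (exact permutation p = 0.0333). For the aged SF group the part was 0.118 (exact permutation p = 0.00833). The average of the parts is 0.153. They depend on how much of a gene's spread falls in a condition and are not correlations within it. Without the aged NSF pairs 1 and 2 the mean r over the remaining pairs was 0.173. Genes with a high level had the higher correlations. Level is here the lower of a gene's mean CPM in heads and its mean CPM in bodies. The median r was 0.0708 in the quartile of genes with the lowest level and then 0.128, 0.181 and 0.309 in the quartile with the highest. Within that highest quartile, the median r went from 0.185 in genes with the smallest spread between libraries to 0.468 in those with the largest spread. The total counts of heads and bodies of equal number had r = 0.0780 (exact permutation p = 0.771) and rho = 0.159 (p = 0.601 by permutation). The log2 TMM factors, which scale each library for its composition, had r = 0.538 (exact permutation p = 0.0596) and rho = 0.531 (exact permutation p = 0.0768), and the part of these factors in the correlations was not tested.

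At an adjusted p under 0.05 (Benjamini-Hochberg over 8657 exact permutation tests), 6 genes were called, 0.0693% of those tested, and all had a positive r. They are Lsp2, Prx2540-1, CR45045, CG12896, CG12106 and CG43920. At an unadjusted exact permutation p under 0.05 there were 795 genes with a positive r, 9.18% of those tested, and 92 with a negative r, 1.06%. An r of 0.7 or more was found in 237 genes, 2.74%, and an r of -0.7 or less in 12. Among 100000 random assignments of numbers within conditions, the median count of genes at 0.7 or more was 38 and the highest 254 (permutation p = 2e-05). Of the 237 genes, 205 had a positive contribution from each of the 3 conditions, and the median Spearman rho was 0.726. With the 2 pairs farthest from the median head deviation left out for each gene, 77 of the 237 kept an r of 0.7 or more. The called set depends on single pairs: leaving out any 1 pair gave 0 called genes, except that leaving out young pair 5 gave 5 and leaving out aged NSF pair 1 gave 5, and it was 0 without the aged NSF pairs 1 and 2 together. With fewer pairs there are also fewer assignments, so the smallest p that a gene can reach is larger. The 237 genes are therefore described by group below. Apart from the 6 called genes and Prx2540-2 and AttC, which lie just outside the threshold, the genes named were chosen after their values had been seen.

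Among the genes with the highest r was a cluster of peroxiredoxin genes, whose products reduce hydrogen peroxide. Prx2540-1 (FBgn0033520, annotated as Prx6b) was at 1067, 324, 423, 133 and 1039 CPM in young heads, 82.7, 88.3, 811, 1609 and 1002 CPM in aged NSF heads and 275, 115, 635, 574 and 211 CPM in aged SF heads. The bodies of the same order of numbers had 1159, 383, 489, 239 and 579 CPM in young bodies, 330.4, 107, 523, 1883 and 815 CPM in aged NSF bodies and 717, 218, 1249, 932 and 397 CPM in aged SF bodies. Each condition held low and high libraries, and the conditions overlapped throughout: the highest head was 19.5 times the lowest within the aged NSF group and 8.02 times within the young group, and the highest body was 17.6 times the lowest within the aged NSF group. Aged NSF pair 4 was the highest of its group in both tissues, and aged NSF pair 2, young pair 4 and aged SF pair 2 were low in both. The head-body r was 0.895 (exact permutation p = 8.68e-06, adjusted p = 0.0317 over 8657 genes) and rho was 0.905 (exact permutation p = 2.31e-05). With the 2 farthest pairs left out r was 0.950.

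Prx2540-2 (FBgn0033518, annotated as Prx6c) lay just outside the threshold, with r = 0.923 (exact permutation p = 4.17e-05, adjusted p = 0.0515) and rho = 0.921 (exact permutation p = 0.0001). It was at 813, 175, 174, 45 and 216 CPM in young heads, 70.8, 78.1, 314, 745 and 361 CPM in aged NSF heads and 307, 169.6, 555, 464 and 206 CPM in aged SF heads. The bodies had 1220, 357, 411, 197 and 402 CPM in young bodies, 203, 90.95, 641, 1080 and 459 CPM in aged NSF bodies and 640.4, 197, 1006, 665 and 284 CPM in aged SF bodies. Young pair 1 was the highest of its group in both tissues and young pair 4 the lowest in both, and the 3 conditions overlapped. CG12896, known here by its number only, ranged from 56.3 to 1370 CPM over the aged NSF heads and from 80.2 to 1516 CPM over the aged NSF bodies, with r = 0.905 (exact permutation p = 1.91e-05, adjusted p = 0.0351) and rho = 0.956 (exact permutation p = 2.89e-06). With the 2 farthest pairs left out, r was 0.927 for Prx2540-2 and 0.950 for CG12896.

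These genes lie side by side on chromosome arm 2R (dm6 coordinates of the Ensembl annotation). Prx2540-2 lies at chr2R:10418718-10419761 on the plus strand, CG11825 at chr2R:10420414-10423650 on the minus strand, Prx2540-1 at chr2R:10424436-10425471 on the plus strand and CG12896 at chr2R:10426880-10427915 on the minus strand. CG11825 had r = 0.859 (exact permutation p = 0.000316, adjusted p = 0.131), and CG33474, whose span lies inside that of CG11825, had r = 0.69. Downstream of the cluster, RanBPM had r = 0.21 (exact permutation p = 0.569) and CG12895 r = -0.51 (exact permutation p = 0.0791). Further on, Galphao had r = 0.44, Caf1-105 r = 0.61 (exact permutation p = 0.0424) and CG11777 r = 0.66 (exact permutation p = 0.0113). The peroxiredoxin genes of the cluster are similar copies. The authors kept no alignment of a mapping quality under 8, and how the remaining reads divide between copies was not tested. None of Prx2540-1, Prx2540-2, CG12896 and CG11825 was called with age or with fragmented sleep in heads or bodies (edgeR quasi-likelihood test, adjusted p from 0.114 to 0.994).

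Among the 17 antioxidant enzymes measured in both tissues, the median r was 0.38, beside 0.168 over all genes. A positive r at an unadjusted p under 0.05 was found in 4 of them (23.5%, beside 9.18% of all genes), and none had a negative one, beside 1.06% of all genes. The same shares of all genes, 9.18% and 1.06%, stand behind the counts of each list below. They are not matched to the lists for level or spread. Among genes in the highest quartile of level, those in its quartile of largest spread had a median r of 0.468. Of these, 31.4% had a positive r at an unadjusted p under 0.05. The third with an r of at least 0.7, after both Prx2540 genes, was Prx3, a mitochondrial peroxiredoxin, with r = 0.70. Sod2, the mitochondrial superoxide dismutase, had r = 0.60. Catalase had r = 0.20 and cnc, the Nrf2 homologue that drives many detoxification genes, r = 0.22.

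**Figure D2:**
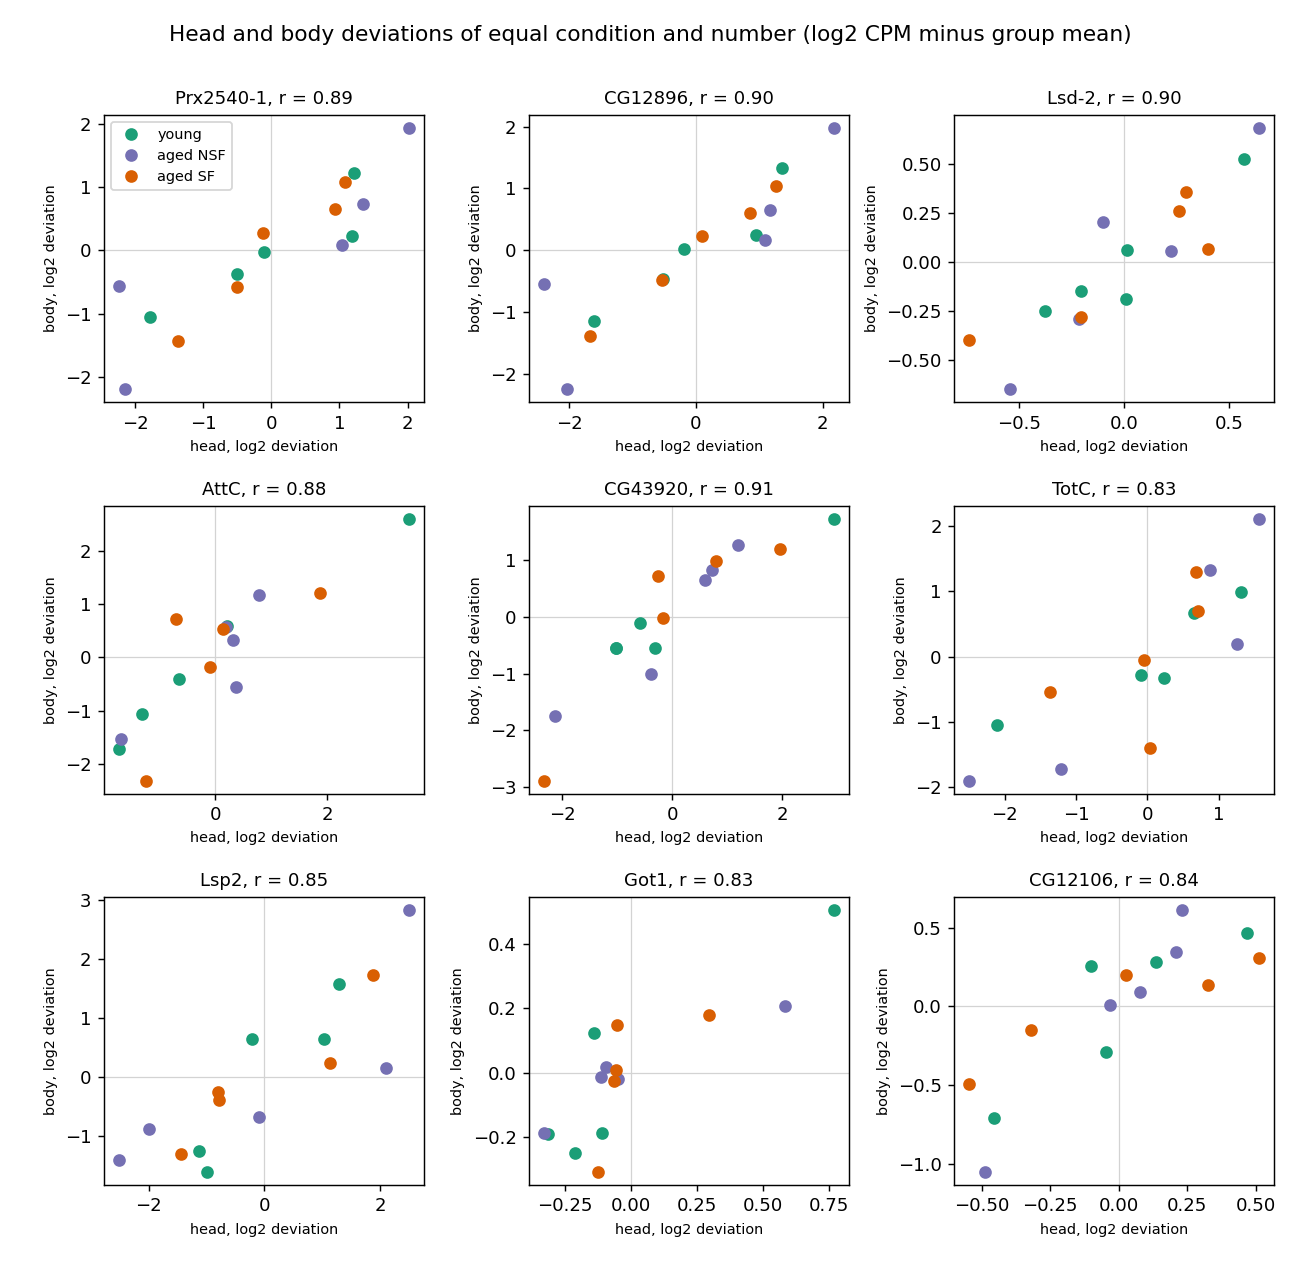
Deviation from the group mean (log2 CPM) in the head (x axis) and in the body of equal condition and number (y axis) for 9 genes, 15 pairs each, coloured by condition. Points of all 3 conditions follow the diagonal for Prx2540-1 (r = 0.89), CG12896 (r = 0.90) and Lsd-2 (r = 0.90), while for Got1 (r = 0.83) a few pairs at the upper right lie apart from the rest.

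Genes with deviations most like those of the peroxiredoxin cluster were sought among the 237 by average linkage on the mean of their head and body correlations, a description with no test. The group that held Prx2540-1, Prx2540-2, CG12896 and CG11825 had 10 genes, and its other members were Lsd-2, CG4259, CG4716, CG8317, CG31778 and CG33695. Lsd-2 encodes the lipid droplet coat protein perilipin 2, which protects stored fat from lipases. It was at 433, 253, 294, 224 and 293 CPM in young heads, 161, 128, 174, 292 and 218 CPM in aged NSF heads and 296, 214, 326, 304 and 148 CPM in aged SF heads. The bodies had 381, 239.8, 277, 223 and 233 CPM in young bodies, 154, 121, 218, 304 and 197 CPM in aged NSF bodies and 352, 242, 307, 375 and 222 CPM in aged SF bodies. The same pairs as for Prx2540-1 were the highest of the young and the aged NSF bodies, on a narrower scale, since the SD of the body deviations was 0.39 for Lsd-2 and 1.17 for Prx2540-1 on the log2 scale. The r of Lsd-2 was 0.897 (exact permutation p = 0.000121, adjusted p = 0.0925), rho was 0.922 (exact permutation p = 0.00013), and r was 0.862 with the 2 farthest pairs left out.

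Antimicrobial peptides were the list with the highest median correlation. The median r of 14 peptides was 0.75, beside 0.168 over all genes, 13 (92.9%) had a positive r at an unadjusted p under 0.05, and 8 had an r of 0.7 or more. None was called at an adjusted p under 0.05. The 8 were AttA, AttB, AttC, CecA2, Dpt, DptB, Dro and Mtk, and the lowest r was that of Def at 0.41. AttC, a secreted attacin active against Gram-negative bacteria, was at 197, 109, 68.7, 51.1 and 1898 CPM in young heads, 4758, 4385, 1197, 4937 and 6620 CPM in aged NSF heads and 1199, 10330, 2663, 3104 and 1734 CPM in aged SF heads. The bodies had 52.9, 26.3, 16.6, 10.3 and 214 CPM in young bodies, 4010, 4738, 1111, 2177 and 7181 CPM in aged NSF bodies and 341, 3920, 1498, 2453 and 2789 CPM in aged SF bodies. The young libraries were below the aged ones in bodies, and overlapped them in heads only at young head 5, which with young body 5 was the highest of its group. Aged NSF pair 3 was the lowest of its group in both tissues, as was aged SF pair 1, while aged SF pair 2 was the highest of its group in both. The r of AttC was 0.882 (exact permutation p = 5.84e-05, adjusted p = 0.0632), rho was 0.811 (exact permutation p = 0.00106), and r was 0.799 with the 2 farthest pairs left out.

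The called genes CG43920 and CR45045 deviated with the peptides. CG43920 was at 0, 0.278, 0, 0.506 and 11.9 CPM in young heads, 264, 244, 36.03, 122 and 365 CPM in aged NSF heads and 24.4, 492, 113, 221 and 106 CPM in aged SF heads. The bodies had 0, 0.156, 0, 0 and 1.68 CPM in young bodies, 271, 241, 45.3, 75.99 and 369.9 CPM in aged NSF bodies and 10.8, 191, 81.5, 165 and 136 CPM in aged SF bodies. In young libraries it was near or at 0, where 1 read decides the value, apart from pair 5, and in the aged groups low and high libraries matched between tissues. Its r was 0.915 (exact permutation p = 2.43e-05, adjusted p = 0.0351), rho was 0.952 (exact permutation p = 6.25e-05), and r was 0.937 with the 2 farthest pairs left out. CR45045, listed as the coding gene CG45045 in the current annotation, had a median of 197 CPM over the aged NSF heads and 249 CPM over the aged NSF bodies, against 7.78 and 3.11 CPM over the young ones. Its r was 0.879 (exact permutation p = 1.1e-05, adjusted p = 0.0317) and rho was 0.891 (exact permutation p = 0.000119). With the 2 farthest pairs left out its r was 0.873.

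The group of genes around these peptides had 18 members and a mean correlation between genes of 0.77. It held AttA, AttB, AttC, CecA2, Dpt, DptB, Dro, Mtk, CG43920, CR45045, CR44404 (IBIN in the current annotation, a gene known to be induced by infection), edin, which is also induced by infection, PGRP-SB1, an amidase that cleaves peptidoglycan, Pu, the GTP cyclohydrolase that starts pteridine synthesis, Rel, and CR45714, CG4267 and CG43109. Rel, the NF-kB factor of the Imd pathway, had r = 0.873 (exact permutation p = 0.000317, adjusted p = 0.131) and edin r = 0.870 (exact permutation p = 0.000139, adjusted p = 0.0925). Of the 18 genes, 8 had another gene with an r of 0.7 or more within 10 kb. Over all 230 genes with a position and such an r it was 46 (20%), beside 10.9% of all tested genes with a position.

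Of 11 Bomanins and other Toll-induced peptides, 4 (36.4%) had a positive r at an unadjusted p under 0.05, and the median r was 0.46. Their r ranged from 0.22 for IM4 to 0.870 for edin, which the list holds too, with IM1 at 0.64, IM23 at 0.63 and Drsl5 at 0.62. Only edin had an r of 0.7 or more in this list. It is 1 of the 4 genes, and it deviated with the group of Rel and the attacins above. CG5791, named BomBc3 in the current annotation and not held by the list, had r = 0.722. Of 33 genes for immune recognition and NF-kB signalling, 8 (24.2%) had a positive r at that p and none a negative one, with a median of 0.39. Dif, the NF-kB factor of the Toll pathway, had r = 0.887, most of it from the young pairs (0.694), and r = 0.652 with the 2 farthest pairs left out. PGRP-SA, the receptor that senses Gram-positive bacteria upstream of Toll, had r = 0.742. Dredd and imd, signalling proteins of the Imd pathway, had r = 0.18 and -0.18.

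**Figure D3:**
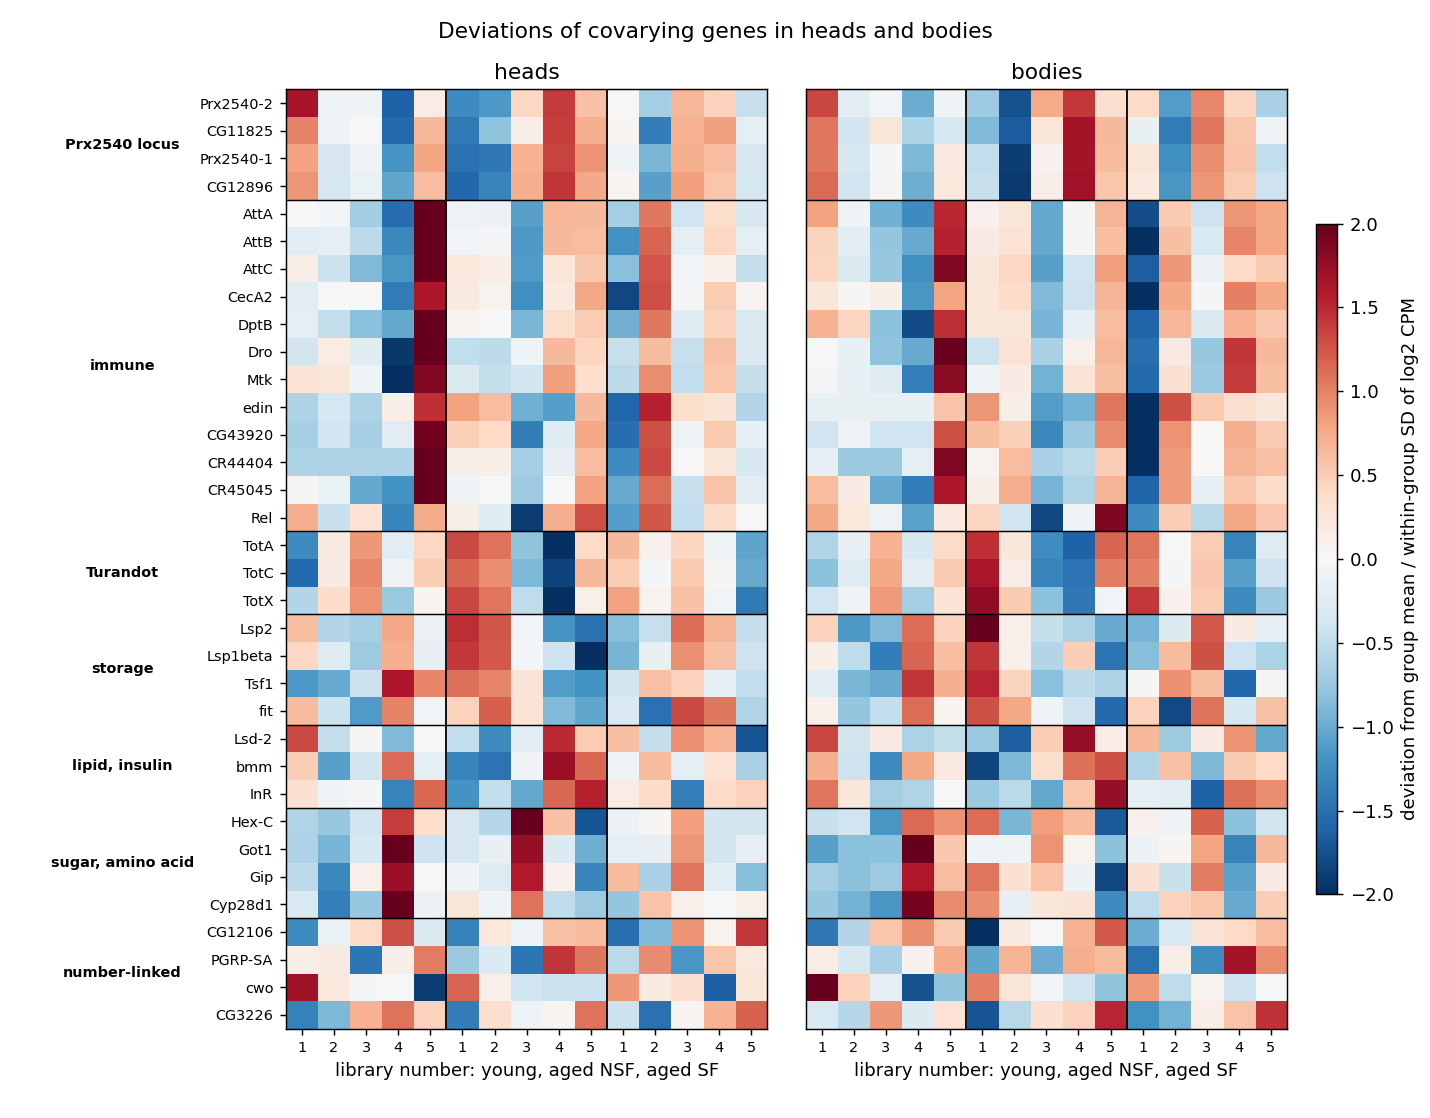
Deviations from the group mean divided by the SD within groups, for 34 genes (rows) in the 15 heads (left) and 15 bodies (right), ordered by condition and number. Red is above and blue below the group mean. The immune block is red in young head 5 (AttC at 1898 CPM) and young body 5 (214 CPM), and the Prx2540 block in aged NSF head 4 and body 4 (Prx2540-1 at 1609 and 1883 CPM).

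Turandot genes, secreted proteins that are induced by stress through JAK-STAT signalling, formed another set with other high and low libraries. TotC was at 932, 4708, 9967, 3764 and 6340 CPM in young heads, 1549, 1251, 224, 91.1 and 958 CPM in aged NSF heads and 5989, 3610, 6122, 3831 and 1447 CPM in aged SF heads. The bodies had 593, 971, 2434, 1009 and 1952 CPM in young bodies, 964, 255, 67.98, 59.9 and 559.5 CPM in aged NSF bodies and 2417, 953, 1596, 372 and 679.8 CPM in aged SF bodies. Young pair 1 was the lowest of its group in both tissues and young pair 3 the highest, and in the aged NSF group pair 1 was the highest and pair 4 the lowest in both. TotC had r = 0.835 (exact permutation p = 0.000872, adjusted p = 0.189) and rho = 0.875 (exact permutation p = 0.000431), and r = 0.797 with the 2 farthest pairs left out. TotX had r = 0.854, TotA 0.811 and TotM 0.61. Transcripts of pathway components had lower values: Socs36E, the feedback inhibitor, had r = 0.33, Stat92E, the transcription factor, 0.27, and hop, the kinase, -0.13. The activity of the pathway was not measured. In all, 4 of the 9 genes of the list (44.4%) had a positive r at an unadjusted p under 0.05 and none a negative one, with a median of 0.33.

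Heat shock proteins had a median r of 0.44 over 19 genes, with 7 (36.8%) at an unadjusted p under 0.05 and a positive r, and no r as high as 0.7. The stress-induced Hsp70Bc had r = 0.69, Hsp68 0.65 and Hsp83 0.63, while the constitutive Hsc70-4 had 0.12 and Hsp60, the mitochondrial chaperonin, -0.13. Reads of the Hsp70 copies, which are nearly alike, could be split between them.

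The gene with the smallest p was Lsp2, a storage protein of the hexamerin family that fat body makes in larvae. It lies at chr3L:12129393-12131869 on the plus strand in dm6. Lsp2 was at 2688, 661, 601, 3210 and 1131 CPM in young heads, 260.0, 197, 42.1, 10.7 and 7.17 CPM in aged NSF heads and 66.97, 107, 675, 407 and 105 CPM in aged SF heads. The bodies had 236, 49.1, 63.2, 445 and 234 CPM in young bodies, 68.1, 10.3, 5.67, 4.81 and 3.21 CPM in aged NSF bodies and 5.39, 10.5, 46.8, 16.3 and 11.5 CPM in aged SF bodies. Young heads were all above the aged NSF heads, and within each condition the high and low libraries matched, with aged NSF pair 1 the highest of its group in both tissues and aged NSF pair 5 the lowest. The r was 0.852 (exact permutation p = 3.47e-06, adjusted p = 0.0301), rho was 0.865 (exact permutation p = 1.33e-05), and r was 0.851 with the 2 farthest pairs left out. The antisense gene CR11538 shares 84.6% of the exons of Lsp2, and the strand setting of the counting is not given, so reads of the pair cannot be told apart.

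Other storage and blood proteins deviated with Lsp2. Its group of 6 genes held Lsp1beta, another hexamerin, with r = 0.746, Tsf1, the iron carrier transferrin, with r = 0.75, fit, a secreted satiety signal of fat body, with r = 0.74, CR11538 and CG8249. Of 9 fat body storage proteins, 4 (44.4%) had a positive r at an unadjusted p under 0.05, and the median was 0.46. The yolk proteins Yp1, Yp2 and Yp3, which are made by females, had r of -0.08, -0.24 and -0.27. The summed level of 3 fat body markers, Lsp2, to and Fbp1, ranged from 16.1 to 3265 CPM over heads and from 30.2 to 481 CPM over bodies, with r = 0.787. Lsp2 made up a median of 87.8% of that sum in heads and 31.1% in bodies, so the sum repeats the values of Lsp2 in large part. Without Lsp2, a choice made after its share was seen, r was 0.742. This sum is nearly all to, since Fbp1 was at 3.03 CPM or less in every library. With the 2 farthest pairs left out, to had r = 0.252. Fbp1 alone had r = 0.319 over all pairs. In libraries of whole heads and bodies, fewer fat body cells and less of these RNAs per cell cannot be told apart.

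Markers of other tissues gave lower values. The summed midgut markers ranged from 16.8 to 764 CPM over heads, with r = -0.0522 against the bodies (exact permutation p = 0.872) and rho = -0.0912 (exact permutation p = 0.769), and r = -0.313 without the 2 farthest pairs. Testis markers had r = 0.220 and rho = 0.156 (exact permutation p = 0.493 and 0.654), and hemocyte markers r = 0.306 and rho = 0.349 (exact permutation p = 0.28 and 0.239). Flight muscle markers had r = 0.455 and rho = 0.293 (exact permutation p = 0.185 and 0.386), and r = -0.0831 without the 2 farthest pairs. Accessory gland, photoreceptor, neuron and yolk protein markers lay between r = -0.235 and r = 0.119.

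Genes of lipid metabolism and insulin signalling had medians above that of all genes, and near the 0.468 of genes with the highest level and largest spread. Of 16 lipid genes, 5 (31.2%) had a positive r at an unadjusted p under 0.05 and the median was 0.47. After Lsd-2 came bmm, the lipase that opposes it at the droplet, with r = 0.806, and then ATPCL and ACC, enzymes of fatty acid synthesis, with r = 0.68 each. Of 20 insulin and FOXO genes, 6 (30.0%) had a positive r at that p, and the median was 0.48. InR, the insulin receptor, was at 48.1, 42.5, 43.4, 28.3 and 63.2 CPM in young heads, 105, 131, 110.2, 221 and 251 CPM in aged NSF heads and 122, 131, 75.3, 132 and 135 CPM in aged SF heads. The bodies had 32.8, 23.6, 16.6, 17.2 and 21.6 CPM in young bodies, 105, 114, 94.6, 172 and 270.1 CPM in aged NSF bodies and 90.9, 89.3, 52.3, 148 and 139 CPM in aged SF bodies. Young libraries were below all aged ones in both tissues, and within the aged NSF group pairs 4 and 5 were the highest in both. InR had r = 0.798 (exact permutation p = 0.00212, adjusted p = 0.241) and rho = 0.835 (exact permutation p = 0.00171), and r = 0.740 with the 2 farthest pairs left out. Ilp6, an insulin-like peptide of fat body, had r = 0.65, and Thor, the translation inhibitor that FOXO induces, r = 0.59.

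Glycolysis had the second highest median of the lists with 5 or more genes, 0.57 over 13 enzymes, of which all had a positive r and 8 (61.5%) had it at an unadjusted p under 0.05. Hex-C, a hexokinase, had r = 0.786, Ald 0.66 and Gapdh2 0.65, and ImpL3, the lactate dehydrogenase, was the lowest at 0.23. Hex-C deviated with Got1, an aminotransferase that links amino acids to the citric acid cycle, in a group of 11 genes with Gip, Mul1, Cyp28d1, CG31075, CG32444, CG3397, CG7322, CG8036 and CR45175. Got1 was at 357, 332, 383, 704 and 374 CPM in young heads, 276, 289.5, 449, 281 and 238 CPM in aged NSF heads and 288, 289, 370.0, 276 and 290.0 CPM in aged SF heads. The bodies had 385, 401, 402, 649 and 499 CPM in young bodies, 492, 490.4, 573, 503 and 437 CPM in aged NSF bodies and 406, 416, 468, 334 and 458 CPM in aged SF bodies. Young pair 4 was the highest of its group in both tissues, and so were aged NSF pair 3 and aged SF pair 3. Got1 had r = 0.835 (exact permutation p = 0.00022, adjusted p = 0.116) and rho = 0.795 (exact permutation p = 0.00081), and it rested on few pairs, since r was 0.620 with the 2 farthest left out.

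**Figure D4:**
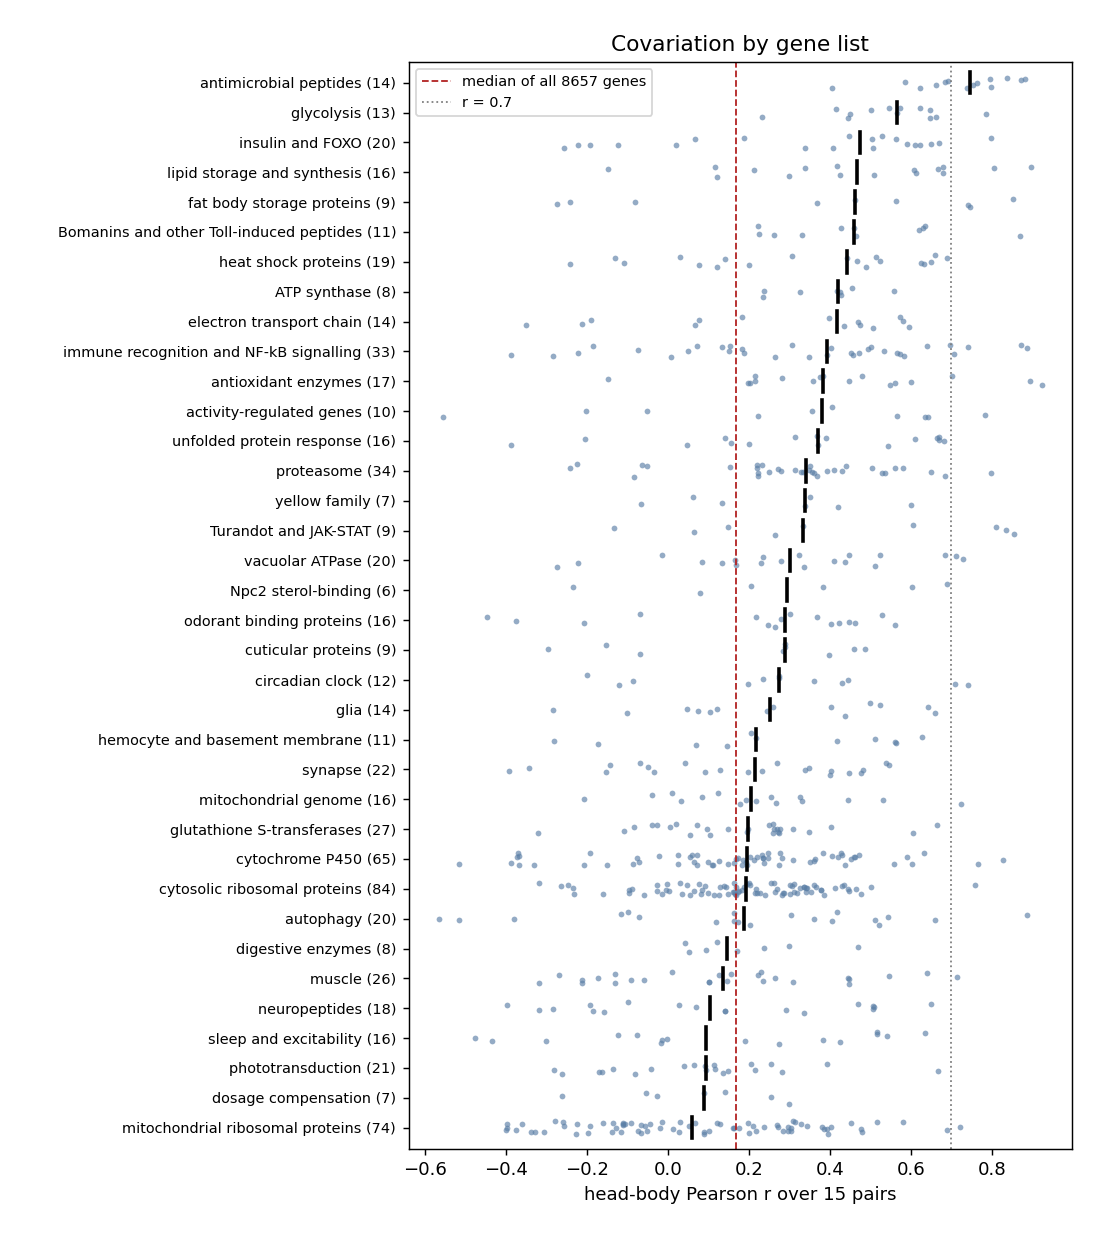
Head-body Pearson r over 15 pairs of each gene (points) of the gene lists with 5 or more genes measured in both tissues. Black bars are list medians, from 0.75 for antimicrobial peptides to 0.06 for mitochondrial ribosomal proteins, the dashed line is the median of all 8657 genes (0.168), and the number of genes stands after each name.

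Lists of sleep, neuronal, visual and muscle genes had medians between 0.09 and 0.22, beside 0.168 over all genes. Of 16 genes with known effects on sleep or excitability, 1 (6.25%) had a positive r at an unadjusted p under 0.05, namely ple, the tyrosine hydroxylase of dopamine synthesis, with r = 0.64, and the median was 0.09. Of 18 neuropeptides, 1 (5.56%) passed that p with a median of 0.11, and of 21 phototransduction genes 1 (4.76%) with a median of 0.09. Synaptic genes had a median of 0.22 over 22 genes and muscle genes 0.14 over 26. In the circadian clock list, with a median of 0.28, 2 of 12 genes passed (16.7%), cwo, a repressor of the clock, with r = 0.71 and to, a gene of fat body under clock control, with r = 0.74. The r of to was 0.252 with the 2 farthest pairs left out. The core clock genes per, tim and Clk had r of 0.24, 0.28 and 0.28. Cytosolic ribosomal proteins had a median of 0.19 over 84 genes, and mitochondrial ribosomal proteins 0.06 over 74.

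Genes with opposite deviations in head and body were few. None was called at an adjusted p under 0.05, a share of 0%, against the 92 at an unadjusted p. The lowest p belonged to atms, a subunit of the Paf1 elongation complex, with r = -0.824 (exact permutation p = 0.000183, adjusted p = 0.113) and rho = -0.806 (exact permutation p = 0.000871). Exn had r = -0.805 (exact permutation p = 0.000965, adjusted p = 0.204) and rho = -0.839 (exact permutation p = 0.000492). Left without the 2 farthest pairs, r was -0.795 for atms and -0.898 for Exn. Hr38, a nuclear receptor induced by neuronal activity, had r = -0.55.

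A share of the covariation went with the number itself, across conditions. Heads correlated with bodies of the same number in the other conditions at a mean of 0.0458 (exact permutation p = 0.0101), heads with heads of the same number at 0.0539 (exact permutation p = 0.00299) and bodies with bodies at 0.0687 (exact permutation p = 0.0435). What a number stands for is not given in the labels. With the mean of each number over the 3 conditions also removed, the mean profile correlation was 0.125 and the mean r per gene 0.0990, and 131 of the 237 genes kept an r of 0.7 or more, beside 379 of all genes at that level. This removal leaves fewer independent deviations per gene, which widens the spread of r by construction. The count at 0.7 or more rose from 237 to 379 while the median r fell from 0.168 to 0.110. Values before and after the removal are therefore not matched. No gene was then called at an adjusted p under 0.05, with 7776 rearrangements and a smallest p of 0.000129. The peroxiredoxin genes of the cluster kept an r of 0.7 or more, with 0.933 for Prx2540-1 and 0.969 for Prx2540-2. So did Lsp2 at 0.901, TotC at 0.912, Got1 at 0.912, Lsd-2 at 0.862 and AttC at 0.834, and all 11 genes of the Got1 group kept 0.7 or more. Others fell below 0.7, among them AttA at 0.667, Dpt at 0.611 and InR at 0.674. Of the 18 genes around the peptides 13 kept 0.7 or more, and of the 13 genes in the group of InR 3 did. The median of the 14 peptides went from 0.75 to 0.64, that of the Bomanin list from 0.46 to 0.26, and that of the Turandot and JAK-STAT list from 0.33 to 0.57, beside 0.110 over all genes with the number mean removed.

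The called gene CG12106 did not. CG12106 (X chromosome, function not known here) was at 26.8, 35.8, 40.8, 51.6 and 34.5 CPM in young heads, 21.8, 32.7, 30.3, 35.9 and 36.5 CPM in aged NSF heads and 15.02, 17.7, 28.1, 22.8 and 32.2 CPM in aged SF heads. The bodies had 35.2, 47.3, 70.3, 80.1 and 69.3 CPM in young bodies, 17.9, 39.9, 37.7, 47.9 and 57.5 CPM in aged NSF bodies and 28.7, 36.6, 44.7, 46.6 and 50.3 CPM in aged SF bodies. Libraries numbered 1 were the lowest of their group in both tissues in all 3 conditions. Its r was 0.844 (exact permutation p = 2.03e-05, adjusted p = 0.0351) and rho was 0.847 (exact permutation p = 7.06e-05), with r = 0.786 when the 2 farthest pairs were left out, and r was 0.299 with the number mean removed (exact permutation p = 0.317). It deviated with 8 other genes, among them Prosalpha7, a proteasome subunit, and Ufd1-like, and 1 of these 9 genes kept an r of 0.7 or more. PGRP-SA went from 0.742 to 0.139 and cwo from 0.71 to 0.136 with the number mean removed.

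**Figure D5:**
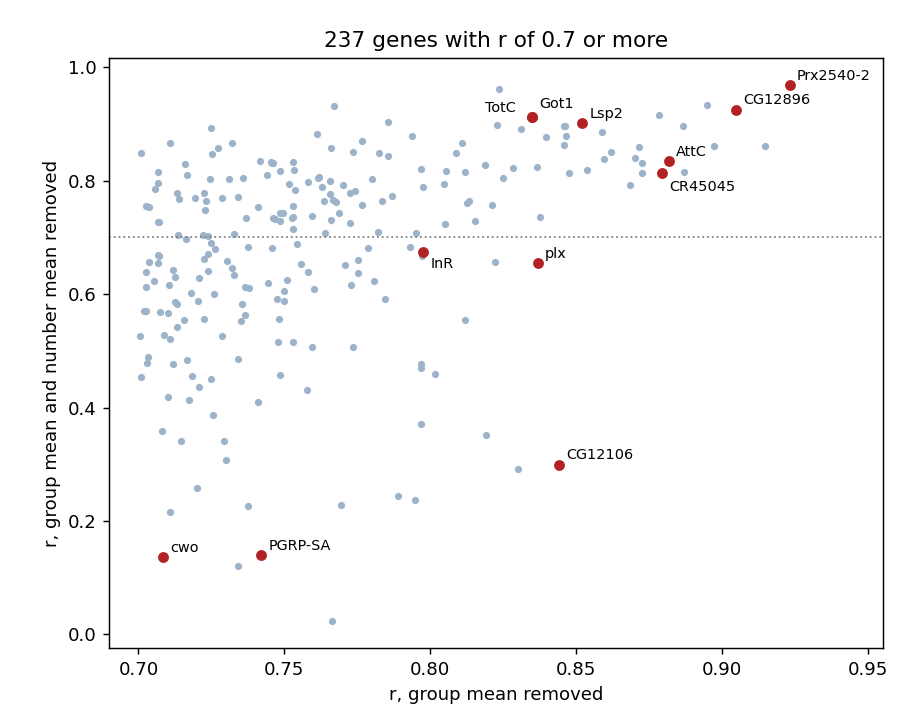
For the 237 genes with a head-body r of 0.7 or more, r after removal of the group mean (x axis) against r after removal of both the group mean and the mean of each number over the 3 conditions (y axis). Genes above the dotted line kept 0.7 or more (131 genes), Prx2540-2 stays at 0.969, and CG12106, PGRP-SA and cwo lie at 0.299, 0.139 and 0.136.

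Genes that covaried within groups were also compared between groups, in which their deviations play no part other than as spread. In heads, 2075 of 9088 genes (22.8%) were called between aged NSF and young flies (edgeR quasi-likelihood test, adjusted p under 0.05). Of the 237 genes with an r of 0.7 or more, 79 were called in heads (51 higher and 28 lower in aged NSF), which is 33.3%, beside 23.0% of the 8657 genes measured in both tissues (998 higher and 990 lower). In bodies, 4934 of 12009 genes were called (41.1%), among them 120 of the 237 (100 higher and 20 lower), or 50.6% beside 38.3% (2409 higher and 904 lower). Of the 237 genes, 127 were in the quartile with the highest level and 22 in the lowest. The shares here and in the next paragraph are not matched for level. Of the 14 antimicrobial peptides, 13 were called in heads and 14 in bodies, all of them higher in aged NSF. AttC was higher by 3.23 in heads and 5.91 in bodies on the log2 scale (edgeR adjusted p = 0.0467 and 0.000263) and Rel, their transcription factor, by 1.89 and 2.09 (edgeR adjusted p = 0.00049 and 0.000159). InR was higher by 1.85 and 2.75 (edgeR adjusted p = 8.79e-05 and 6.81e-05). Lsp2 fell by 3.99 in heads and by 3.48 in bodies (edgeR adjusted p = 0.0178 and 0.00716).

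Between aged SF and aged NSF flies, which share the aged NSF libraries with the comparison above, none of the 237 genes was called in heads, where 23 of 9088 were (0.253%), or in bodies, where 0 of 12009 were (0%). At an unadjusted p under 0.05, edgeR gave 30 of the 237 in heads (12.7%, beside 9.21% of the genes measured in both tissues) and 42 in bodies (17.7%, beside 16.5%). DESeq2 called 86 genes in heads and 604 in bodies in the same comparison. Age differences that differ between heads and bodies (tissue by age interaction) were called for 1622 of 12318 genes (13.2%). The log2 change was the more positive in heads for 534 of them and in bodies for 1088, a split that was 833 and 534 with RLE scaling and 1238 and 727 in DESeq2. Of the 237 genes, 27 were called (11.4%, beside 16.3% of the genes measured in both tissues), and since the split turns with the scaling no direction is given for them. The tissue by sleep interaction gave 0 calls (0%), with 1259 genes at an unadjusted p under 0.05 in edgeR and 123 called by DESeq2.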

How the data were processed

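Single male heads and bodies were profiled by mRNA sequencing, 5 libraries per tissue and condition. According to the study's design text and the submitters' processing notes, adapters were trimmed by the authors (Trimmomatic), reads aligned to dm6 (STAR), secondary alignments and those of a mapping quality under 8 dropped, and reads on exons counted (HTSeq-count). Tool versions, annotation and strand setting are not given in the sources used here. The deposited table holds raw read counts per gene, with no normalization. The authors' table of comparisons was not used.

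Counts were filtered by group in each tissue (filterByExpr), scaled by TMM (edgeR 4.0.16 in R 4.3.3) and turned into log2 CPM with a prior count of 2. Group means were removed in each tissue, and the head-body Pearson r over 15 pairs was tested by enumerating all assignments of numbers within conditions (Python 3.11.15, numpy 2.4.6), two-sided. For Spearman's rho, deviations were ranked within a tissue, and the group means of the ranks were removed before correlation. Adjusted p-values are Benjamini-Hochberg over 8657 genes. The procedure was tested on simulated counts with shared deviations in known genes. CPM is not corrected for gene length, so levels are not compared between genes. Between-condition tests used edgeR's quasi-likelihood test on the counts, with DESeq2 1.42.0 as an alternative. The consensus correlation within the head-body pairs, estimated with limma 3.58.1 over the 8657 genes, was 0.152.

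Each library is from a single head or body, and the p-values of edgeR and DESeq2 rest on the spread between these libraries. Exact permutation p-values give the share of rearranged pairings that were at least as extreme as the labelled one. Precision is limited by 15 pairs and by depth, which is lowest in heads. The labels do not say what a number marks and tie no head to a body. The numbers were therefore not used as a block in the main between-condition tests. Not every pair had a profile correlation above 0.1, and the lowest was 0.0483. The main interaction tests treat a head and a body of equal number as independent libraries, although their deviations covaried. The rule for named genes took the called genes with the smallest p, those nearest to the threshold and up to 4 called genes per list. With 6 called genes it gave these and the 2 just outside, and the other genes named were chosen after their values had been seen. Members and the 40 gene lists were chosen with earlier results of these data known. Alternatives were scaling, prior count, filter, rank correlation, equal variance, library size, the first principal component and tissue-restricted genes. Others were left-out conditions and pairs, blocks by number, and blocks by head-body pair in the interaction tests.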

Additional observations from a re-analysis of the deposited data

Results flagged for a closer look

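Of 75 groups of 5 libraries or pairs looked at, 6 held a value far from the other 4. Chance flags about 1 in 20 groups. AttC was low in head 3 of the aged NSF group, at 1197 CPM, in the pair whose body was also the lowest of its group. CG43920 was high in young head 5 at 11.9 CPM and in young body 5 at 1.68 CPM, while the other young libraries were at 0.506 CPM or less. Got1 was high in young head 4 at 704 CPM and in aged SF head 3 at 370.0 CPM. InR was low in aged SF head 3 at 75.3 CPM. None of the 12 genes looked at was called in the tissue by age or tissue by sleep interaction.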

How the results depend on the processing

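The mean profile correlation and the mean r per gene kept their direction and an exact permutation p under 0.05 under every alternative run, between 0.0780 (no filter on low counts) and 0.237 (at least 10 CPM in each group) for the first, and between 0.0870 (first principal component removed) and 0.187 for the second. Leaving out 1 pair gave 0.148 to 0.173 and 0.134 to 0.168. The count of 6 called genes was 0 with no filter, after regression on library size, after removal of the first principal component, without the young, aged NSF or aged SF pairs, and without aged NSF pairs 1 and 2, was 1 by Spearman correlation, and was 0 to 5 when 1 pair was left out. The count of 237 genes at r of 0.7 or more was 123 after regression on library size (86 shared with the 237), 117 after removal of the first component (72 shared), 415, 519 and 598 without the young, aged NSF and aged SF pairs, 381 without aged NSF pairs 1 and 2, and 228 to 335 when 1 pair was left out. Fewer pairs widen the spread of r by construction, and for the other settings the cause was not tested. They also leave fewer assignments, which raises the smallest p that a gene can reach. Without a whole condition, several genes would have to share that smallest p before any was called. The counts of 0 called genes there therefore say little about the called set. No r of the 40 named genes changed sign. Of 1219 values of 40 named genes under alternatives, 173 lost their threshold.

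With the replicate block (number mean removed), the profile correlation was 0.125, the mean r 0.0990, the called genes 0 and the genes at r of 0.7 or more 379. That last count is not matched to the 237, since the block also widens the spread of r by construction. The count of 0 called genes is limited by the smallest p of 0.000129 that 7776 rearrangements allow. In the between-condition tests within a tissue, a block on the number gave 2234 genes with age in heads and 5261 in bodies, against 2075 and 4934. With sleep it gave 63 in heads and 1 in bodies, against 23 and 0. For the interactions the block was another one, the head-body pair of equal condition and number. This pair block gave 1978 genes for tissue by age and 3 for tissue by sleep, against 1622 and 0. For sleep, RLE scaling gave 5 in bodies, no filter 56 in heads and 1 in bodies, and DESeq2 86 in heads, 604 in bodies and 123 for the interaction. Leaving out 1 library gave 1732 to 2119 and 9 to 61 in heads, 3644 to 5339 and 0 to 250 in bodies (250 without aged NSF body 1), 991 to 1885 for tissue by age (991 without young body 3), and 0 to 13 for tissue by sleep. The split of the tissue by age calls, 534 more positive in heads and 1088 in bodies, turned to 833 and 534 with RLE scaling, to 1238 and 727 in DESeq2, and also without any 1 of 6 body libraries (young 2, 3 and 5, aged NSF 3, aged SF 1 and 4), as in 749 and 381 without young body 2.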

Other observations

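Some further gene groups had head-body correlations that the text above does not describe, given as values over the same 15 pairs, each list's median beside 0.168 over all genes and each count at an unadjusted p under 0.05 beside 9.18% of all genes with a positive r and 1.06% with a negative one. Machinery of protein turnover lay above that median: 34 proteasome genes had a median r of 0.34, with 5 (14.7%) at that p and a positive r, led by Prosalpha7 (r = 0.80), and 16 genes of the unfolded protein response had 0.37, with 3 (18.8%). With the number mean removed these medians were 0.0816 and 0.179, and that of the Npc2 list below was 0.0376, beside 0.110 over all genes. None of these lists was matched to all genes by level or spread. Of 20 autophagy genes, Atg101, a subunit of the kinase complex that starts autophagy, had r = 0.887 (exact permutation p = 0.000576, adjusted p = 0.16), and rho = 0.792 (exact permutation p = 0.00224), while the median was 0.19. Rab7, a small GTPase of late endosomes, had r = 0.872 and 0.687 with the 2 farthest pairs left out. ATP synthase subunits had a median of 0.42 over 8 genes, the electron transport chain 0.42 over 14, the vacuolar ATPase 0.30 over 20, and transcripts of the mitochondrial genome 0.21 over 16.

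Among enzymes that handle toxins, 65 cytochrome P450 genes had a median r of 0.20, with 6 (9.23%) at that p and a positive r, a share near that of all genes. Cyp4ac2 had r = 0.83 and Cyp28d1 0.77, while 27 glutathione S-transferases had a median of 0.20, with 2 (7.41%). Of 10 activity-regulated genes, 3 (30.0%) had a positive r at that p and 1 a negative one, and kay, the fly Fos, had r = 0.784. Medians were 0.34 for 4 thioester proteins, 0.22 for 11 hemocyte and basement membrane genes, 0.25 for 14 glial genes, 0.29 for 16 odorant binding proteins, 0.29 for 6 Npc2 sterol-binding proteins, 0.29 for 9 cuticular proteins, 0.34 for 7 yellow family genes, 0.15 for 8 digestive enzymes and 0.09 for 7 dosage compensation genes. The 2 testis genes measured in both tissues had a median of -0.11, and 4 accessory gland genes 0.13.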
